A study of Mus musculus with 8 samples.

Results

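The glucocorticoid receptor gene Nr3c1 and 9 genes of its pathway were followed in imiquimod-treated mouse epidermis with and without Hnrnpu. The 10 genes are the receptor Nr3c1, the mineralocorticoid receptor Nr3c2, the steroid-activating enzyme Hsd11b1, and 7 genes that glucocorticoids are known to induce: Fkbp5, Tsc22d3, Zbtb16, Sgk1, Klf9, Dusp1 and Ddit4. They were picked by symbol from the 23171 genes of the deposited count table, and all 10 were present. The choice was made knowing that Fkbp5, Tsc22d3 and Zbtb16 stood higher in the knockout, so the genotype difference in these 10 genes is described here without p-values.

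All 8 libraries came from epidermis of imiquimod-treated mice, labelled as keratinocytes and as a single batch. Imiquimod is a Toll-like receptor agonist used on mouse skin to produce psoriasis-like inflammation. Of these libraries, 4 were from mice with a knockout of Hnrnpu restricted to the epidermis (cKO) and 4 from controls labelled WT. Hnrnpu encodes a nuclear RNA-binding protein. The sources used here do not name the Cre driver, the deleted exons, the strain, sex and age of the mice or the imiquimod schedule, and no library without imiquimod was analysed.

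The glucocorticoid receptor waits in the cytoplasm bound to Hsp90 and partner chaperones, enters the nucleus when it binds corticosterone, and there switches genes on by binding a palindromic DNA element or restrains inflammatory genes. Cells set their own supply of active hormone with a pair of enzymes, Hsd11b1, which regenerates it, and Hsd11b2, which inactivates it. Keratinocytes carry the receptor, and topical glucocorticoids are a standard treatment for psoriasis.

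Libraries held 37158621 to 38865722 counts, and 14004 genes passed the filter on low counts. Hnrnpu itself, which checks the labels, lay at 43.4% to 85.3% of the WT mean in the cKO libraries, all of them below every WT library. Its log2 fold change was -0.51 ± 0.19 (SE) and did not pass the test over all genes (edgeR quasi-likelihood test, adjusted p = 0.191). Keratinocyte markers were abundant in both genotypes: 5 basal genes summed to 15033 to 27448 CPM (counts scaled to the library size) in cKO and 23508 to 35265 in WT, and 5 suprabasal genes to 38981 to 72141 and 44301 to 69884. The second principal component, with 26.1% of the variance, set cKO replicates 1 and 4 (36.7 and 56.8) apart from cKO replicates 2 and 3 (-35.8 and -27.7), so each cKO library is given by number below.

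The classical binding element of the receptor was looked for near the start of each gene, because the members are known as its targets. RefSeq windows on GRCm38.p6, from 250 bases before to 50 after an annotated start, were at hand for 8 of the 10 genes, 15 windows in all. The letters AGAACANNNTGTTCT were searched for on both strands, and so was a single arm, AGAACA, which also lies within the full element. Among all 32851 windows of this length, 3 held the full element, and the window at chr10:21993640-21993939 of Sgk1, a kinase gene that raises sodium transport, was among them. The full element there reads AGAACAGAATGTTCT and starts 189 bases before the annotated start of that window. Sgk1 has 6 such windows, each with its own annotated start, and the other windows of Sgk1 lack the full element. A single arm occurred in windows of Sgk1 and Tsc22d3 (4 of the 15 windows, 26.7%, against 19.0% of all windows). All but 1 of these windows belong to Sgk1, which supplies 6 of the 15, and they include the window with the full element. The other windows of Tsc22d3 lack a single arm. Counted by gene, 2 of the 8 genes held a single arm, against 21.3% of all genes. Of the other 29 glucocorticoid-induced genes with windows, listed further on, none held the full element. A single arm was held by 5 of them (17.2%, against 21.3% of all genes). Of the 3 windows shown, that of Sgk1 holds the full element, that of Tsc22d3 (chrX:140600473-140600772, minus strand) a single arm, and that of Fkbp5 (chr17:28486100-28486399, minus strand) neither. Capitals mark the full element and every single arm, and sequences run 5′ to 3′ along the gene's strand.
Sgk1: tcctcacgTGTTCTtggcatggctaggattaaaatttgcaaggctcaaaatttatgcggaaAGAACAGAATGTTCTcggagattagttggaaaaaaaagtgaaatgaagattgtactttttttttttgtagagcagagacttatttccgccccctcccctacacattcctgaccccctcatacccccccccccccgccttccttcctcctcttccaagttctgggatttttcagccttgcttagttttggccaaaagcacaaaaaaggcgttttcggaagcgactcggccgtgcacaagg
Tsc22d3: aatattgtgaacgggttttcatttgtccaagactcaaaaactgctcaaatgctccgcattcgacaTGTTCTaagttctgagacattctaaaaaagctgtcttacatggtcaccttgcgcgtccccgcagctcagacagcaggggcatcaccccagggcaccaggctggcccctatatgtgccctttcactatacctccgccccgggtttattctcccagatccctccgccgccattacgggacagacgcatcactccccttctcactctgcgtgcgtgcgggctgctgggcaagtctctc
Fkbp5: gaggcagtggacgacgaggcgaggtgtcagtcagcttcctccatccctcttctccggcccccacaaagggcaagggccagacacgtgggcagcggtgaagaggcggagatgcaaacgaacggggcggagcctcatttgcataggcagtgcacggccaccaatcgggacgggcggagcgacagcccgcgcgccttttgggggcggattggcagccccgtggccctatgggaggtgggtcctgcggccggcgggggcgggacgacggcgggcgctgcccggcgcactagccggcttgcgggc
A match describes letters in the reference only. The absence of the element from the Fkbp5 window says nothing of sites elsewhere in that gene, and binding was not measured.

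Nr3c1, the receptor, was slightly higher in cKO, with no overlap between genotypes. It stood at 54.6, 49.3, 66.2 and 58.0 CPM in cKO replicates 1 to 4 and at 46.2, 45.8, 41.9 and 46.5 CPM in WT replicates 1 to 4. The lowest cKO library, replicate 2, lay close above the highest WT library. The means were 57.0 ± 7.10 and 45.1 ± 2.17 CPM (SD, n = 4 each), a 1.27-fold difference (log2 0.34 ± 0.10 SE, 95% confidence interval 0.11 to 0.57). It was not among the genes called at an adjusted p below 0.05.

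Nr3c2, which binds the same hormone with high affinity, was barely detected, with 0 to 11 counts per library. It was the 1 member that did not pass the filter on low counts, and no fold is given. The cKO libraries held 6, 0, 11 and 8 counts and the WT libraries 4, 8, 7 and 9, ranges that overlap entirely. Hsd11b1 was also near the limit of detection, with 22, 8, 26 and 5 counts in cKO replicates 1 to 4 and 11, 16, 14 and 14 in WT. The cKO libraries lay on both sides of the WT range, 2 above and 2 below it, and the fitted difference was 0.05 ± 0.52 on the log2 scale (95% confidence interval -1.11 to 1.21). A change of Hsd11b1 by 2-fold either way lies within that interval.

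Fkbp5 encodes an immunophilin co-chaperone that lowers the receptor's affinity for hormone and so closes a feedback loop. It stood at 85.5, 82.3, 113.6 and 150.0 CPM in cKO replicates 1 to 4 against 53.3, 40.3, 40.2 and 45.2 CPM in WT. The genotypes did not overlap, and cKO replicate 4 was the highest library. The means, 107.8 ± 31.4 and 44.8 ± 6.16 CPM (SD, n = 4 each), differ 2.41-fold (log2 1.27 ± 0.20 SE, 95% confidence interval 0.82 to 1.72).

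Tsc22d3 encodes GILZ, a leucine zipper protein that carries part of the anti-inflammatory action of glucocorticoids. Its levels were 76.1, 101.3, 146.7 and 124.6 CPM in cKO replicates 1 to 4 and 65.7, 57.1, 50.2 and 43.9 CPM in WT replicates 1 to 4. All cKO libraries lay above WT, replicate 1 by the least and replicate 3 by the most. The fitted difference was 2.07-fold (log2 1.05 ± 0.21 SE, 95% confidence interval 0.59 to 1.51), between means of 112.2 ± 30.4 and 54.2 ± 9.34 CPM (SD, n = 4 each).

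Zbtb16 encodes PLZF, a zinc finger repressor that glucocorticoids induce in many tissues and that also marks innate-like lymphocytes. It was the least abundant of these and differed the most. Zbtb16 was at 14.4, 7.42, 21.6 and 17.4 CPM in cKO replicates 1 to 4 and at 5.22, 4.17, 2.53 and 2.44 CPM in WT replicates 1 to 4. The cKO replicate 2 library was again the nearest to WT. The fold was 4.24 (log2 2.08 ± 0.36 SE, 95% confidence interval 1.27 to 2.90), from means of 15.2 ± 5.96 and 3.59 ± 1.35 CPM (SD, n = 4 each).

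**Figure D1:**
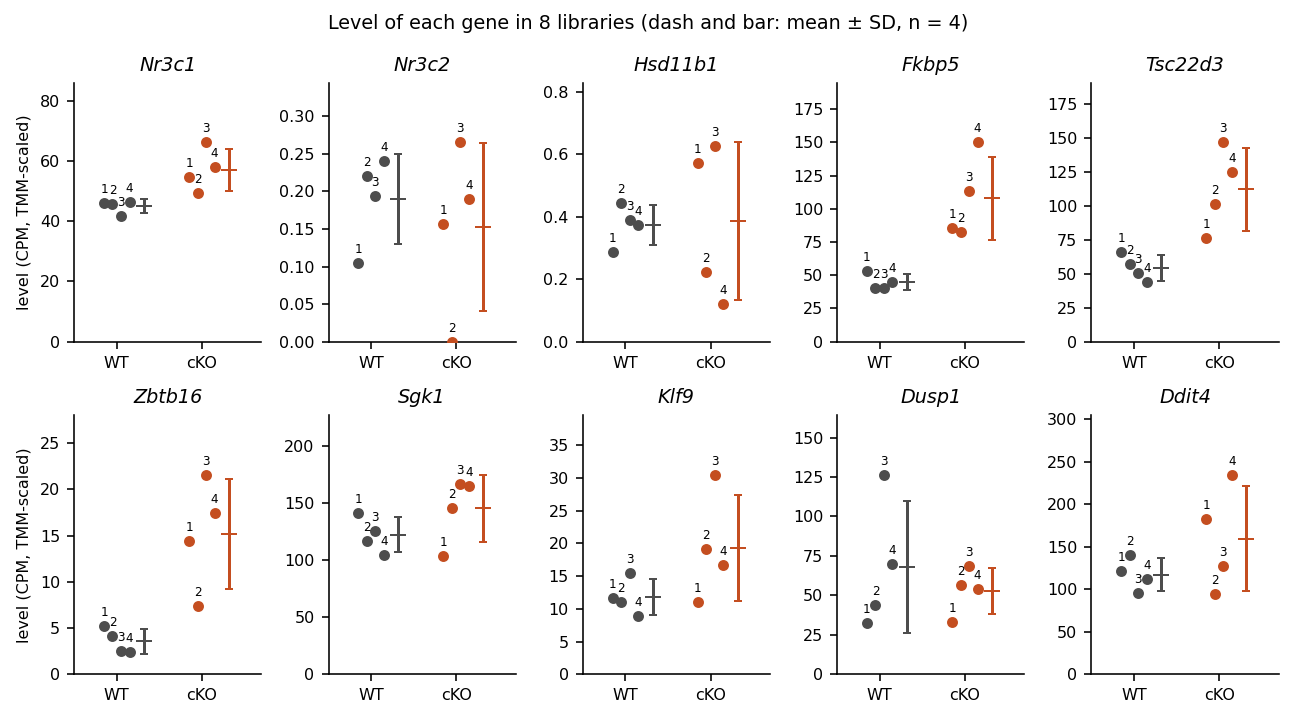
Level of each of the 10 genes (vertical axis, CPM from 0, a separate scale per gene) in the 4 WT and 4 cKO libraries, numbered by replicate, with mean ± SD beside the points. The genotypes do not overlap for Nr3c1, Fkbp5, Tsc22d3 and Zbtb16, and they overlap for the other 6.

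The other induced genes did not separate by genotype. Sgk1 was at 103.8, 145.4, 166.8 and 164.9 CPM in cKO replicates 1 to 4 and at 141.0, 116.6, 125.7 and 104.6 CPM in WT replicates 1 to 4. Here 3 cKO libraries lay above all WT libraries and replicate 1 lay below them, and the fold of 1.19 has an interval from 0.926 to 1.53.

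Klf9, a Krüppel-like factor that is a direct receptor target and restrains keratinocyte proliferation, had 11.1, 19.1, 30.4 and 16.6 CPM in cKO replicates 1 to 4 and 11.6, 11.1, 15.5 and 8.86 CPM in WT. It exceeded the WT range in the same 3 libraries, cKO replicates 2, 3 and 4, while cKO replicate 1 lay inside it. Its log2 fold change was 0.71 ± 0.29 (SE, 95% confidence interval 0.06 to 1.37), and 0.42 without cKO replicate 3.

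Ddit4, a stress-induced inhibitor of mTOR signalling, followed another order. It was highest in cKO replicates 4 and 1, at 234.5 and 182.9 CPM, and within the WT spread or just below it in cKO replicates 3 and 2, at 127.1 and 93.9 CPM. WT libraries held 121.1, 140.8, 95.3 and 112.2 CPM. The log2 fold change was 0.44 ± 0.26 (SE, 95% confidence interval -0.14 to 1.03), or 0.21 without cKO replicate 4.

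Dusp1, a phosphatase that switches off MAP kinases, was the only tested member with a lower mean in cKO. Its levels were 33.3, 56.3, 68.3 and 54.1 CPM in cKO replicates 1 to 4 and 32.3, 43.8, 126.3 and 70.2 CPM in WT replicates 1 to 4, so every cKO library lay within the WT range. The log2 fold change of -0.36 ± 0.39 (SE, 95% confidence interval -1.25 to 0.53) rested on WT replicate 3 and was 0.12 without it. Dusp1 is also an immediate early gene, and the 12 other genes of that class tested were highest in different libraries: 4 in WT replicate 3 (Jun, Junb, Ier3 and Btg2), 3 in cKO replicate 4 (Fos, Egr1 and Ier2) and 5 in cKO replicate 3 (Fosb, Egr2, Atf3, Nr4a1 and Klf2).

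Of the 9 members that passed the filter, 8 had a positive and 1 a negative fold change, with a median log2 fold change of 0.44 against 0.01 over all 14004 tested genes. The 3 members called by edgeR at an adjusted p below 0.05 were Fkbp5, Tsc22d3 and Zbtb16, those already known to be higher when the genes were chosen. Over all genes, 0.671% were called as higher in cKO, 0.65% as lower and 1.32% in either direction. All cKO libraries lay above all WT libraries for 4 of the 9 members and for 5.26% of all tested genes, and all lay below for 0 members and 5.82% of genes. These counts are stated for scale only, since the same contrast chose the members.

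All 3 calls were lost in most fits that leave out 1 library, and those fits called fewer genes of the whole table. All 3 genes were called without cKO replicate 2, and Fkbp5 and Zbtb16 without cKO replicate 4. None of the 3 was called without cKO replicate 1 or 3 or without any single WT replicate, fits in which 8 to 66 genes of the whole table were called in place of 185. Their log2 fold changes stayed between 1.07 and 1.40 for Fkbp5, 0.90 and 1.20 for Tsc22d3, and 1.88 and 2.33 for Zbtb16 over the 8 fits that leave out a library.

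**Figure D2:**
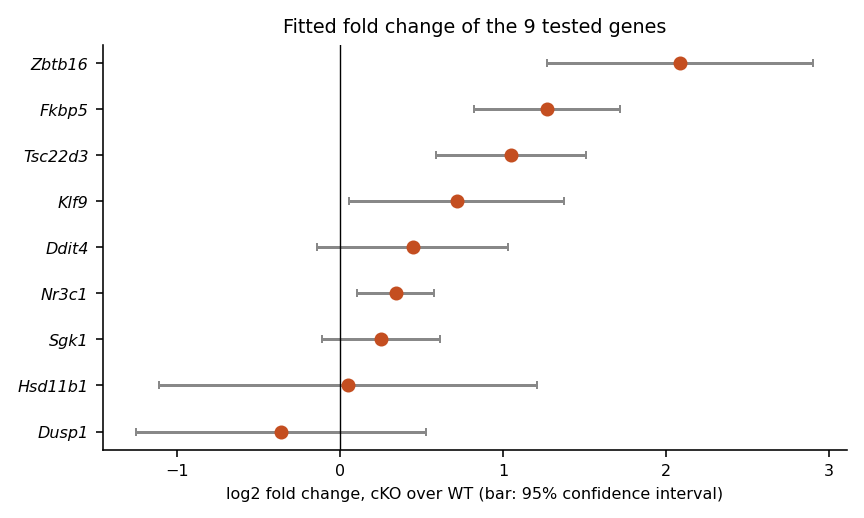
Fitted log2 fold change of cKO over WT (horizontal axis) for the 9 tested genes, with bars for the 95% confidence interval. Zbtb16, Fkbp5 and Tsc22d3 lie furthest to the right, at 2.08, 1.27 and 1.05, and Dusp1 lies left of 0, at -0.36.

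Levels can be compared between genes only per gene length, which the deposited FPKM values (fragments scaled to gene length and library size) allow. In WT the order by median FPKM was Ddit4 (68.7), Dusp1 (28.6), Sgk1 (28.1), Tsc22d3 (12.9), Fkbp5 (10.7), Nr3c1 (5.14), Klf9 (2.51), Zbtb16 (0.394), Hsd11b1 (0.224) and Nr3c2 (0.0224). The WT ranges of Ddit4 and Dusp1, of Dusp1 and Sgk1, and of Tsc22d3 and Fkbp5 overlapped, so these neighbours are not ordered beyond their spread. In cKO, Tsc22d3 (28.4) and Fkbp5 (26.7) had median FPKM just under that of Dusp1 (28.6), with overlapping ranges. In both genotypes the receptor transcript lay sixth, below Fkbp5 and above Klf9 by median.

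The cKO libraries did not rank alike for all members. Replicate 3 was the highest cKO library for 7 of the 9 tested members and replicate 4 for the other 2, Fkbp5 and Ddit4. Relative to the WT mean, cKO replicate 3 held 6.01 times as much Zbtb16, 2.71 times as much Tsc22d3 and 2.59 times as much Klf9, while cKO replicate 1 held 4.02, 1.40 and 0.941 times. The library with the least Hnrnpu, cKO replicate 1 (43.4% of the WT mean), was the highest cKO library for 0 of the 9 tested members. The share of all tested genes for which it was the highest cKO library was not counted. A relation between Hnrnpu level and member level was not tested. Spread within a genotype was larger in cKO than in WT for 8 of the 9 tested members, by the coefficient of variation, Dusp1 being the exception (27.5% in cKO and 61.5% in WT). For Zbtb16 it was nearly equal (39.2% and 37.6%). The share of all tested genes with a larger spread in cKO was not counted. Whole libraries also differed, with a chi-square per degree of freedom of 69.0 to 247.1 between cKO pairs and 47.9 to 114.6 between WT pairs.

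**Figure D3:**
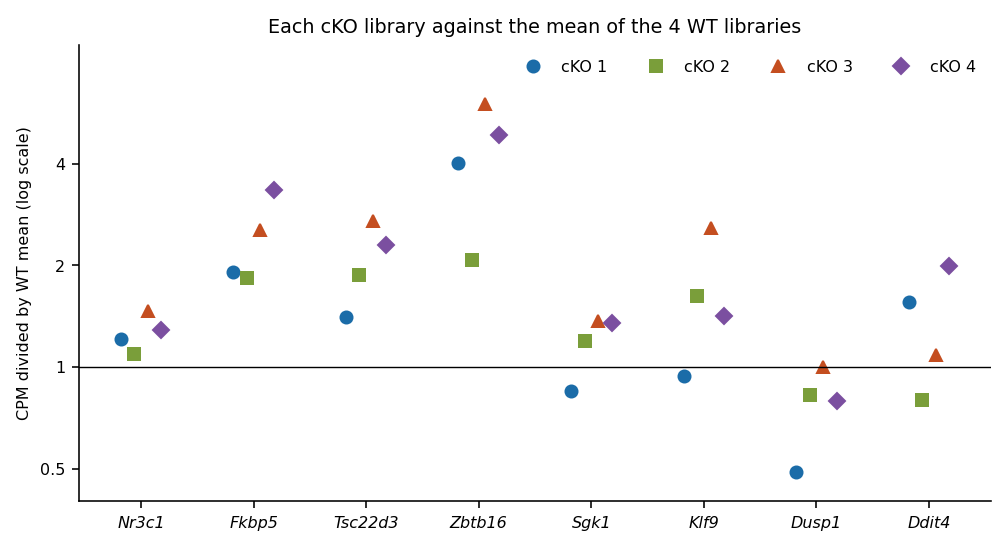
Level in each cKO library divided by the mean of the 4 WT libraries (vertical axis, log scale) for 8 of the 9 tested members (Hsd11b1 is not drawn), with a symbol per cKO replicate. Fkbp5, Tsc22d3, Zbtb16 and Nr3c1 lie above 1 in all 4 libraries, and cKO replicate 1 falls below 1 for Sgk1 (0.851), Klf9 (0.941) and Dusp1 (0.488).

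Genes with the most similar pattern over the 8 libraries were found by the root mean square difference in log2 CPM, each gene centred on its own mean, among 10018 named genes averaging 4 CPM or more. Nearest to Fkbp5 were Postn (0.21), the matricellular protein periostin, Mitf (0.24), a melanocyte transcription factor, and Kctd17 (0.24), against a spread of Fkbp5 itself of 0.67. Nearest to Tsc22d3 were Aldh3a2 (0.13), the fatty aldehyde dehydrogenase, Adgrl3 (0.17), an adhesion receptor, and Slc12a2 (0.17), a sodium-potassium-chloride cotransporter, against 0.59. Zbtb16 lay nearest to Rflnb (0.32), Gata6 (0.32), a transcription factor of the upper follicle and sebaceous duct, and Hspa2 (0.33), against 1.15. Nr3c1 lay nearest to Rabac1 (0.05), Coa8 (0.07) and Gpd1l (0.07), against 0.20. Among the members themselves, Fkbp5 and Tsc22d3 were each other's nearest (0.26). These distances include the genotype difference and are descriptions over 8 libraries.

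Epidermal samples also hold follicle, gland, pigment and immune cells, and with bulk RNA more cells of a type and more RNA per cell cannot be told apart. Of 7 hair follicle markers, edgeR called 2 as higher in cKO, as it did 0.671% of all tested genes, and limma on FPKM called 2. All 7 had a positive fold change, and 6 had an unadjusted edgeR p below 0.05 (85.7%, against 18.6% of all tested genes). The summed level of the 7 was 2962 to 4537 CPM in cKO against 1374 to 2265 CPM in WT. Krt79 made up most of this sum, averaging 2763 CPM in cKO and 1432 CPM in WT. Sebocyte markers summed to 853 to 3144 against 497 to 1033 CPM, mostly Scd1 (means 1467 and 584 CPM). Melanocyte markers summed to 51.6 to 111.5 against 30.5 to 49.4 CPM (6 of 6 positive in this list and in the sebocyte list). In the sebocyte and melanocyte lists, edgeR and limma on FPKM called none. In each of them, 5 of 6 had an unadjusted edgeR p below 0.05 (83.3%, against 18.6% of all tested genes). DESeq2, which called 1266 of 23171 genes, called 5 sebocyte, 3 melanocyte, 5 hair follicle and 2 adipocyte markers. The adipocyte list went both ways in edgeR, with Pparg higher in cKO (log2 1.26) and Fabp4 lower (log2 -2.36). The follicle and sebocyte sums were highest in cKO replicate 3 (4537 and 3144 CPM), which also had the highest Tsc22d3 and Zbtb16. Other libraries did not follow this order. In cKO replicate 4, with the highest Fkbp5 (150.0 CPM), the follicle sum was 3514 CPM and the sebocyte sum 853 CPM, within the WT range. In cKO replicate 1, with the lowest Tsc22d3 of the cKO libraries (76.1 CPM), these sums were 3043 and 2288 CPM. T cell and innate lymphoid markers, of interest because Zbtb16 is also a lymphocyte gene, summed to 214 to 667 CPM in cKO and 288 to 354 CPM in WT, but Rora and Gata3 made up 74.4% to 95.2% of that sum. Without these, the other 7 genes summed to 20.2 to 57.4 CPM in cKO and 15.3 to 73.8 CPM in WT, highest in WT replicate 4. Cd4 averaged 0.647 CPM in cKO and 0.0870 CPM in WT (log2 2.84, edgeR adjusted p = 0.0582) and Cd8a, below the filter on low counts, 0.409 and 0.0742 CPM, both with every cKO library above WT, while Cd3e, Cd3d and Cd3g overlapped. DESeq2 called 2 genes of this list and edgeR and limma on FPKM none, with 1 at an unadjusted p below 0.05. Fibroblast markers summed to 36.0 to 116.0 CPM in cKO and 48.3 to 92.0 in WT, neutrophil markers to 793 to 3821 and 1761 to 7465 CPM, and endothelial markers to at most 2.60 CPM in any library. Vim made up most of the fibroblast sum (means 70.9 CPM in cKO and 65.6 CPM in WT). S100a8 made up nearly all of the neutrophil sum (means 2117 and 4320 CPM), so these 2 sums mainly follow 1 gene each. No marker looked for and present in the table was at 0 in every library. The part of these cell types in the members' differences was not tested.

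A wider set held 35 genes known to be induced by glucocorticoids in various tissues. Of the 31 that passed the filter, none was called in either direction by edgeR, 6 had an unadjusted p below 0.05 (19.4%, against 18.6% of all tested genes), DESeq2 called 1 and limma on FPKM none. Their median log2 fold change was 0.17 (21 positive, 10 negative), against 0.01 over all tested genes. Klf15, a metabolic Krüppel-like factor, averaged 2.70 ± 1.58 CPM in the knockout against 0.764 ± 0.149 CPM (SD, n = 4 each), with all cKO libraries above WT (log2 1.82 ± 0.41 SE, edgeR adjusted p = 0.06), and it was the gene DESeq2 called. Per1, a clock gene with a receptor element, was at 62.3 ± 14.6 and 45.9 ± 4.51 CPM, again with no overlap (log2 0.44, adjusted p = 0.184). Foxo3, a forkhead factor, was at 92.5 and 67.9 CPM (log2 0.44, adjusted p = 0.127).

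Lower values occurred in the same set. Map3k6 was at 54.3 and 77.0 CPM (log2 -0.51, edgeR adjusted p = 0.133), Cebpd at 12.7 and 19.7 (-0.62, adjusted p = 0.455) and Cdkn1c at 0.415 and 0.725 (-0.80, adjusted p = 0.503). The 2 most abundant, Anxa1, the anti-inflammatory annexin (1132 and 1337 CPM, log2 -0.24), and Glul, glutamine synthetase (355 and 251 CPM, log2 0.50), had adjusted p-values of 0.524 and 0.583. Glul was at -0.00039 without cKO replicate 3.

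**Figure D4:**
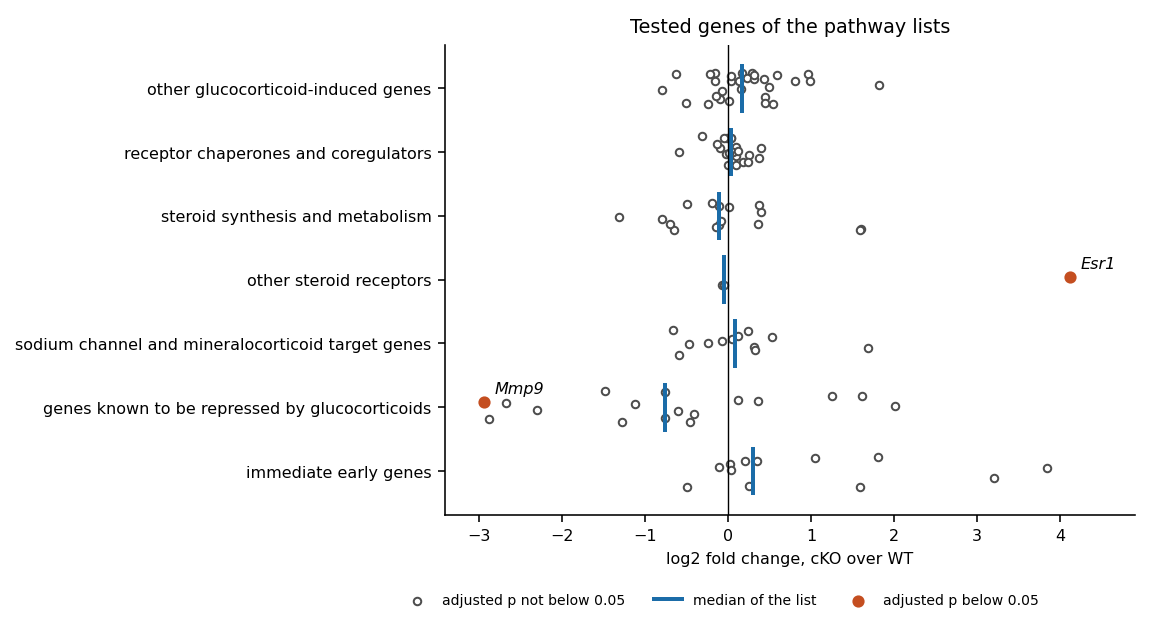
Log2 fold change of cKO over WT (horizontal axis) for every tested gene of the 7 pathway lists, with a blue bar at each list's median and orange points for adjusted p below 0.05. Esr1 (4.12) and Mmp9 (-2.93) are the 2 called genes, and the median of the other glucocorticoid-induced genes is 0.17.

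Among the chaperones and coregulators of the receptor, none of 23 was called by edgeR, 3 had an unadjusted p below 0.05 (13.0%, against 18.6% of all tested genes), DESeq2 called 1 (Nrip1) and limma on FPKM none, with a median log2 fold change of 0.04. Fkbp4, the immunophilin that competes with Fkbp5 for the receptor complex and aids its transport, averaged 152 ± 26.4 CPM in the knockout against 117 ± 4.53 CPM (log2 0.38, edgeR adjusted p = 0.162). Ppp5c and Dnaja1 were at 0.40 and 0.25 (adjusted p = 0.314 and 0.384). Nrip1, a corepressor of nuclear receptors, was lower in all cKO libraries, at 35.8 ± 3.65 against 53.8 ± 11.1 CPM (log2 -0.59, adjusted p = 0.0796), and so was the Mediator subunit Med1 (log2 -0.32, adjusted p = 0.196). The abundant Hsp90ab1 was at 1878 and 1648 CPM (adjusted p = 0.424) and Hspa8 at 1432 and 1435 CPM (adjusted p = 0.993).

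Hormone supply could be read only in part. Hsd11b2 had at most 5 counts, and the late steps of corticosterone synthesis, Cyp21a1 and Cyp11b1, at most 3 and 4 counts in any library. Of 16 tested genes of steroid synthesis and metabolism none was called by edgeR, 6 had an unadjusted p below 0.05 (37.5%, against 18.6% of all tested genes) and limma on FPKM called none, while DESeq2 called 1 as higher and 4 as lower (median log2 -0.11). H6pd, which makes the cofactor that Hsd11b1 needs, was lower in every cKO library, at 8.36 ± 1.12 against 13.1 ± 1.49 CPM (log2 -0.65 ± 0.14 SE, edgeR adjusted p = 0.0569). Akr1c18, a progesterone-inactivating reductase, was at 50.5 ± 22.8 and 125.5 ± 41.5 CPM (log2 -1.31, adjusted p = 0.0803) and Hsd17b7, which also serves cholesterol synthesis, at 97.8 and 158 CPM (-0.70, adjusted p = 0.0615), both with no overlap. The steroid sulfatase Sts was higher in every cKO library, at 10.4 ± 5.42 and 3.43 ± 1.80 CPM (log2 1.59, adjusted p = 0.135). Hsd3b6 (1.60, adjusted p = 0.293), Fdxr (0.37, adjusted p = 0.259) and Tspo (-0.11, adjusted p = 0.775) overlapped between genotypes.

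Among other steroid receptors, the estrogen receptor Esr1 rose, from 0.698 ± 0.220 to 12.2 ± 3.74 CPM (log2 4.12 ± 0.33 SE, edgeR adjusted p = 0.00251, SD over n = 4 each), and it was called under every alternative run. It was the 1 called gene of 3 tested. The orphan receptor Esrra (66.0 and 67.8 CPM, edgeR adjusted p = 0.824) overlapped between genotypes.

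Sodium transport genes, which Sgk1 and the mineralocorticoid receptor act on, gave no call by edgeR in 12 tested genes (3, or 25%, at an unadjusted p below 0.05, against 18.6% of all tested genes, DESeq2 1 higher and 2 lower, limma on FPKM 1 higher; median log2 0.09). Usp2, a deubiquitinase and clock output, averaged 21.2 ± 6.03 CPM in the knockout against 6.58 ± 2.99 CPM, with no overlap (log2 1.69 ± 0.36 SE, edgeR adjusted p = 0.053). Nedd4l, the ubiquitin ligase that Sgk1 inhibits, was at 6.68 and 10.1 CPM (-0.59, adjusted p = 0.132) and Cnksr3 at 11.5 and 18.1 CPM (-0.66, adjusted p = 0.0625), both lower in every cKO library. The channel subunit Scnn1b (0.54, adjusted p = 0.415), Ndrg2 (0.24, adjusted p = 0.397), Fxyd5 (-0.46, adjusted p = 0.377) and Wnk1 (-0.06, adjusted p = 0.703) overlapped.

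Of 21 genes known to be repressed by glucocorticoids, 17 were tested and 1 fell, Mmp9, gelatinase B, from 17.1 ± 4.55 to 2.26 ± 2.04 CPM (log2 -2.93 ± 0.57 SE, edgeR adjusted p = 0.0439, SD over n = 4 each). Mmp9 was called when cKO replicate 2 or 4 was left out and not when any of the other 6 libraries was, with a log2 fold change of -3.74 to -2.61 over these 8 fits. The list had 12 negative and 5 positive fold changes with a median of -0.76. In edgeR, 8 of the 17 had an unadjusted p below 0.05 (47.1%, against 18.6% of all tested genes). They went both ways, with Il1a, Ccl2 and Ccl20 higher in cKO and Il1b, Cxcl2, Mmp3, Mmp9 and Mmp13 lower. The stromelysin Mmp3 (2.06 and 15.1 CPM, log2 -2.88, adjusted p = 0.0654) and the collagenase Mmp13 (3.16 and 19.9 CPM, -2.67, adjusted p = 0.053) were lower in every cKO library without passing. The cytokine and chemokine genes of the list lay on both sides of 0. Higher cKO means were found for Il1a at 50.4 ± 22.2 and 21.1 ± 9.52 CPM (log2 1.26, adjusted p = 0.117), the chemokine Ccl20 at 20.7 ± 18.2 and 5.11 ± 4.67 CPM (2.02, adjusted p = 0.214) and Ccl2 at 2.07 and 0.674 CPM (1.62, adjusted p = 0.157), all with overlap. Lower cKO means were found for Il1b at 2.75 and 6.66 CPM (-1.28, adjusted p = 0.206), Cxcl2 at 0.943 and 4.65 CPM (-2.29, adjusted p = 0.209) and Cxcl1 at 4.66 and 6.19 CPM (-0.41, adjusted p = 0.877), also with overlap. Csf3, which did not pass the filter on low counts, averaged 0.0449 and 2.45 CPM, with every cKO library below WT. The keratins Krt6a (4568 ± 3217 and 7717 ± 1927 CPM, -0.76, adjusted p = 0.556) and Krt17 (2034 and 1584 CPM, 0.36, adjusted p = 0.487) lay on either side of 0. The list's 3 collagen genes are also fibroblast markers.

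Immediate early genes, which rise when tissue is handled or stimulated and share Dusp1 with the glucocorticoid response, gave no call by edgeR in 12 tested genes (4, or 33.3%, at an unadjusted p below 0.05, against 18.6% of all tested genes, DESeq2 3 higher, limma on FPKM none; median log2 0.31). Egr2 averaged 91.6 ± 25.7 CPM in the knockout against 44.1 ± 12.1 CPM, with no overlap (log2 1.05, edgeR adjusted p = 0.06), and Klf2 at 0.957 and 0.317 CPM (1.59, adjusted p = 0.111). Atf3 reached 71.6 CPM in cKO replicate 3 and at most 7.99 CPM in any other library (adjusted p = 0.123), and its log2 fold change of 3.84 was 1.65 without that library. Egr1 (178 and 140 CPM, adjusted p = 0.749), Fos (55.7 and 60.2 CPM, adjusted p = 0.941) and Junb (236 and 331 CPM, adjusted p = 0.349) varied widely within both genotypes. The part of such a response in the members' differences was not tested.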

How the data were processed

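RNA from the epidermis of 8 imiquimod-treated mice was sequenced, 4 cKO and 4 WT, grouped by the titles in the labels. The authors deposited whole-number counts per gene symbol and FPKM values for the same genes. Per the submitters' processing notes, the reads went through HISAT2 and HTSeq. The sources used here state no versions, genome build, annotation or strand setting, so genes overlapping an antisense partner cannot be told apart. The deposited FPKM equal the counts divided by a gene length and the column total (20863 of 20863 genes with counts in at least 2 libraries, within a relative tolerance of 0.001), so they hold the same reads and served for levels per length and alternative tests.

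Counts were filtered with filterByExpr (14004 of 23171 genes kept), scaled with TMM factors (0.934 to 1.08) and tested with edgeR 4.0.16 (glmQLFit and glmQLFTest, R 4.3.3), cKO against WT without covariates. Adjusted p-values are Benjamini-Hochberg over all tested genes, and a gene is called below 0.05. SEs and 95% confidence intervals follow from the F statistic. CPM use the TMM-scaled library sizes. On simulated counts for these 14004 genes, 50 of 100 genes changed 2-fold and 82 of 100 changed 4-fold were recovered, with 2 false among 134 calls. The design text gives 4 mice per genotype. No 2 libraries of a genotype agreed within sampling noise (lowest chi-square per degree of freedom 47.9).

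The members and gene lists were chosen with earlier results of these data known. From each list the text names the called genes, up to 3 genes by smallest p in each direction and the 2 most abundant that were not called; genes named beyond these were chosen after their values were seen (Hsd11b2, Cyp21a1, Cyp11b1, Il1b, Cxcl1, Cxcl2, Csf3, single lymphoid markers and the immediate early genes set beside Dusp1). Some genes that this rule picks are not reported here. Alternatives were DESeq2 1.42.0, RLE factors, library-size scaling, other low-count filters, limma 3.58.1 on FPKM with a pseudocount of 1 or 0.1 (mean FPKM at least 0.5, and with 1 also unfiltered), blocking on the replicate number, and leaving out each library.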

Additional observations from a re-analysis of the deposited data

Results flagged for a closer look

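For 56 genes, 112 groups of 4 libraries were checked, and 7 had 1 library far from the other 3. Chance meets this criterion in about 1 group in 20, so the number found is close to that of chance. The 7 are listed as descriptions only. Nr3c1 was lowest in WT replicate 3, at 41.9 CPM, the next being 45.8. Glul reached 425.8 CPM and Ccl20 12.1 CPM in the same library. In cKO replicate 3, Egr2 was at 130.1 CPM and Atf3 at 71.6 CPM. Fos was at 114.5 CPM in cKO replicate 4, and Mmp3 at 5.52 CPM in cKO replicate 2.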

How the results depend on the processing

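Fkbp5, Tsc22d3 and Zbtb16 had a positive fold change under all 17 alternatives, and all 3 were called with DESeq2, both other scalings and both other count filters. The alternatives reuse the libraries in which these 3 genes were first seen higher. They describe the effect of processing and are no support for the difference. Of the members, limma on log2(FPKM + 1) called 1 (Fkbp5), without its filter 0, and log2(FPKM + 0.1) 2, Zbtb16 having a log2 fold change of 0.99 on the log2(FPKM + 1) scale, where the pseudocount shrinks low genes. Leaving out 1 library gave 0 to 3 called members. Over all genes, 185 calls became 1266 with DESeq2, 349 with no low-count filter, 19 with limma on log2(FPKM + 1) with no filter, and 8 to 506 with 1 library left out. Of the genes known to be repressed, 1 was called in the main analysis, 6 by DESeq2, 2 with library-size scaling, 4 with no low-count filter, 3 by limma on log2(FPKM + 1) and on log2(FPKM + 0.1), 0 by limma with no filter and 0 to 3 with 1 library left out. DESeq2 called 3 immediate early genes, 3 sodium channel and target genes, 5 of steroid synthesis, 1 chaperone or coregulator and 1 other induced gene, where edgeR called 0. With no low-count filter 1 immediate early, 1 steroid synthesis and 1 sodium list gene were called, and 1 of the sodium list with library-size scaling and with limma on log2(FPKM + 1) and log2(FPKM + 0.1). Leaving out 1 library gave 0 to 1 for the other induced, chaperone and steroid synthesis lists.

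The replicate number as a block called 216 genes, and 1 member (Fkbp5), 0 repressed, 1 immediate early (Egr2), 1 steroid synthesis (Sts) and 1 sodium list gene (Usp2), with Hsd11b1 at -0.14. Same-numbered libraries deviated with correlations of -0.10, 0.13, 0.10 and 0.19 for numbers 1 to 4, and 2 of the 4 cKO libraries correlated best with their own number, so the numbers were not taken to pair the samples.

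Directions turned for Hsd11b1 (-0.28 to 0.36 with 1 library left out), Dusp1 (-0.59 to 0.12), Glul (-0.00039 to 0.88), Tspo (-0.19 to 0.019), Fos (-0.73 to 0.28), Egr1 (-0.089 to 0.73) and Hspa8 (-0.10 to 0.10). Hspa8 was at 0.068 with library-size scaling, 0.015 with at least 1 CPM in 4 libraries and 0.047 in the 3 limma fits, and Esrra at 0.021 with library-size scaling and 0.020 in the 3 limma fits. The cause of these shifts was not tested. With 0 to 26 counts per library, Nr3c2 and Hsd11b1 are limited by depth.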
